A study of Sus scrofa with 4 samples.

Results

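The 5 miRNAs described here are miR-339, miR-128, miR-505, miR-425 and miR-186 (mir-339, mir-128, mir-505, mir-425 and mir-186 in the files), counted in small RNA libraries of pig vascular stem cells before and after adipogenic induction. They are 5 of the 189 miRNAs with a read, and 6 of the 207 hairpin entries in the files, since miR-128 has 2 hairpin copies. They were picked by name as miRNAs raised by induction, so their ratios with induction chose them and are given as a description, with no test. Scaled to a library's miRNA reads, the label holds at 2-fold in both cultures only for miR-505 and miR-425. In the fat culture miR-425 was short of 2-fold under 4 other scalings.

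The study compared the miRNAs of adipogenesis in primary vascular stem cells of a back muscle, the longissimus dorsi (IVSC), and of subcutaneous fat (SVSC), all at passage 1. The labels call the muscle cultures adipose derived as well, beside a muscle tissue label. There were 4 groups with 1 library each: IVSC and SVSC undifferentiated, and IVSC MDI and SVSC MDI after the adipogenic medium. MDI contained insulin (5 mg/l), the glucocorticoid dexamethasone (0.25 µM) and IBMX (0.5 mM), which blocks phosphodiesterases. IBMX and dexamethasone were withdrawn after 3 days, growth medium returned at day 6, and the cells were kept for 3 or 4 more days, without the labels saying which applies to which culture. Growth and induction media held 20% serum, and the cultures were plated at different densities. The sources used here do not say when the undifferentiated cells were collected, so MDI and time in culture cannot be told apart. They also do not give the number, age, sex or breed of the animals.

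The libraries held 2573249 (SVSC MDI) to 17937121 (SVSC) miRNA reads, and levels are given as CPM, reads per 1000000 miRNA reads of the library. A miRNA with a count of 0 may stand as high as 3 reads, 0.167 to 1.17 CPM by library. SVSC MDI stood apart in its hairpin reads, which took 55.01% of its listed reads against 70.2% to 77.0% in the other 3. miR-21 took 26.3% of the miRNA reads in SVSC MDI, 29.6% in IVSC, 33.6% in IVSC MDI and 44.1% in SVSC, which lay farthest from the others. All 5 mesenchymal and perivascular markers (miR-143, miR-145, miR-199a, miR-199b and miR-214) had reads in every library and summed to 262057 to 409082 CPM. The 5 skeletal muscle markers (miR-1, miR-133a, miR-133b, miR-206 and miR-499) summed to 6275 CPM before and 1137 after MDI in IVSC, and to 1853 and 888 in SVSC. Of these, miR-206 held 4874 and 139.6 CPM in IVSC and 2.79 and 1.55 in SVSC. The markers did not move together. In SVSC the ratio with MDI was 0.363 for miR-1, 9.18 for miR-133a, 12.2 for miR-133b and 1.14 for miR-499. In IVSC these ratios were 0.710, 1.09, 0.239 and 1.04 in the same order. All are ratios of hairpin reads. For miR-133a at most 4.64% of these were on the mature miRNA in any library, and 0% in SVSC MDI, so its ratios say little of the mature muscle miRNA. Neuronal miR-9 went with MDI from 12.7 to 27.8 CPM in IVSC and from 22.2 to 77.3 in SVSC, highest in SVSC MDI like miR-339, miR-128 and miR-505. The other neuronal marker, miR-124, is listed as miR-124a and was too scarce to be compared, at under 10 CPM. Epithelial miR-205 (1 of 5) went from 0.151 to 0.338 and from 0.390 to 3.50 CPM, and the blood cell markers (2 of 4) from 34.9 to 32.3 and from 7.97 to 21.8. Endothelial miR-126 went from 134 to 89.6 and from 52.6 to 63.7 CPM, and liver miR-122 from 10.5 to 3.11 and from 24.1 to 1.94. The part of these cell types in the ratios of the 5 was not tested.

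A miRNA is cut from a hairpin precursor, loaded into an Argonaute protein and guided by its seed, a short stretch near its 5′ end, to messenger RNAs that it represses. The hairpin can also leave reads of the opposite arm, the star strand, and of the loop and flanks. miR-339, miR-128, miR-425 and miR-186 lie within protein-coding genes, and a precursor inside a host gene can be made from its transcript. In the RefSeq annotation of Sscrofa11.1, MIR128-1 lies in R3HDM1 and MIR128-2 in ARPP21, MIR186 in ZRANB2, and MIR425 in DALRD3 beside MIR191. MIR339-1 lies in C3H7orf50, and a further MIR339-2 in MEGF11, while the files have 1 entry for miR-339. In other systems miR-339 has been reported to repress MDM2, the inhibitor of p53, and miR-128, best known from brain, to repress BMI1, a Polycomb protein, and the cholesterol transporter ABCA1. miR-425 has been reported to repress natriuretic peptide A, miR-186 the transcription factor FOXO1, and miR-505 the splicing factor SRSF1.

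With MDI the 5 miRNAs together went from 1051 to 2553 CPM in IVSC and from 1003 to 2831 CPM in SVSC, that is from 0.105% to 0.255% and from 0.100% to 0.283% of the miRNA reads. Rose and fell are used below for a ratio of at least 2-fold whose 95% interval, given in parentheses, excludes 1. The interval is the exact Clopper-Pearson one for the split of a miRNA's reads between the compared libraries. These intervals cover counting error only, PCR reads are not independent molecules, and with 1 library in each group nothing checks the spread between cultures. In IVSC 3 of the 5 rose and none fell, where 16.4% of the 152 miRNAs compared rose and 23.7% fell. In SVSC 4 of the 5 rose and none fell, where 34.2% of 146 rose and 21.9% fell. Since this contrast chose the 5, nothing is read from these counts. The median log2 ratio of the 5 was 1.17 in IVSC and 3.04 in SVSC, beside -0.04 and 0.41 over all miRNAs compared. In such bulk libraries, fewer cells that make a miRNA and less of it in each cell cannot be told apart.

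miR-339 stood at 189 CPM (2511 reads) before and 295 (4364 reads) after MDI in IVSC, and at 50.5 (906 reads) before and 764 (1967 reads) after MDI in SVSC. Undifferentiated SVSC was thus the lowest library and SVSC MDI the highest, with IVSC between them in either state. The ratio with MDI was 15.1 in SVSC (13.98 to 16.4), second from the top of 146 miRNAs, and 1.56 in IVSC (1.48 to 1.63), where miR-339 was not called.

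miR-128 stood at 37.7 CPM (499 reads) before and 48.8 (723 reads) after MDI in IVSC, and at 23.2 (416 reads) before and 219.6 (565 reads) after MDI in SVSC. It was the scarcest of the 5 in every library, and SVSC MDI was the only library above 50 CPM. The ratio was 9.47 in SVSC (8.33 to 10.8) and 1.30 in IVSC (1.16 to 1.46), short of 2-fold.

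miR-505 stood at 80.0 CPM (1060 reads) before and 180.1 (2667 reads) after MDI in IVSC, and at 52.2 (937 reads) before and 431 (1109 reads) after MDI in SVSC. Each MDI library was above each undifferentiated library. The rise was 2.25-fold in IVSC (2.10 to 2.42) and 8.25-fold in SVSC (7.56 to 9.01).

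miR-425 stood at 123 CPM (1626 reads) before and 396 (5860 reads) after MDI in IVSC, and at 165 (2958 reads) before and 414 (1066 reads) after MDI in SVSC. The MDI libraries lay close together and above the undifferentiated ones, although SVSC MDI, the shallowest library, had the fewest raw reads. The rise was 3.22-fold in IVSC (3.05 to 3.41) and 2.51-fold in SVSC (2.34 to 2.70). In SVSC it was short of 2-fold under 4 other scalings, with log2 ratios of 0.82 (TMM), 0.90 (DESeq2 size factors), 0.84 (all listed reads) and 0.93 (without miR-21).

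miR-186, the most abundant of the 5 in every library, stood at 621 CPM (8229 reads) before and 1634 (24201 reads) after MDI in IVSC, and at 712 (12769 reads) before and 1001 (2577 reads) after MDI in SVSC. It rose 2.63-fold in IVSC (2.57 to 2.70). In SVSC its ratio was 1.41 (1.35 to 1.47), a log2 ratio of 0.49 beside the median of 0.41 over all miRNAs compared there. Under the 4 other scalings that log2 ratio was -0.01 (TMM), 0.07 (DESeq2 size factors), 0.01 (all listed reads) and 0.09 (without miR-21), so its direction in SVSC depends on the scaling.

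**Figure D1:**
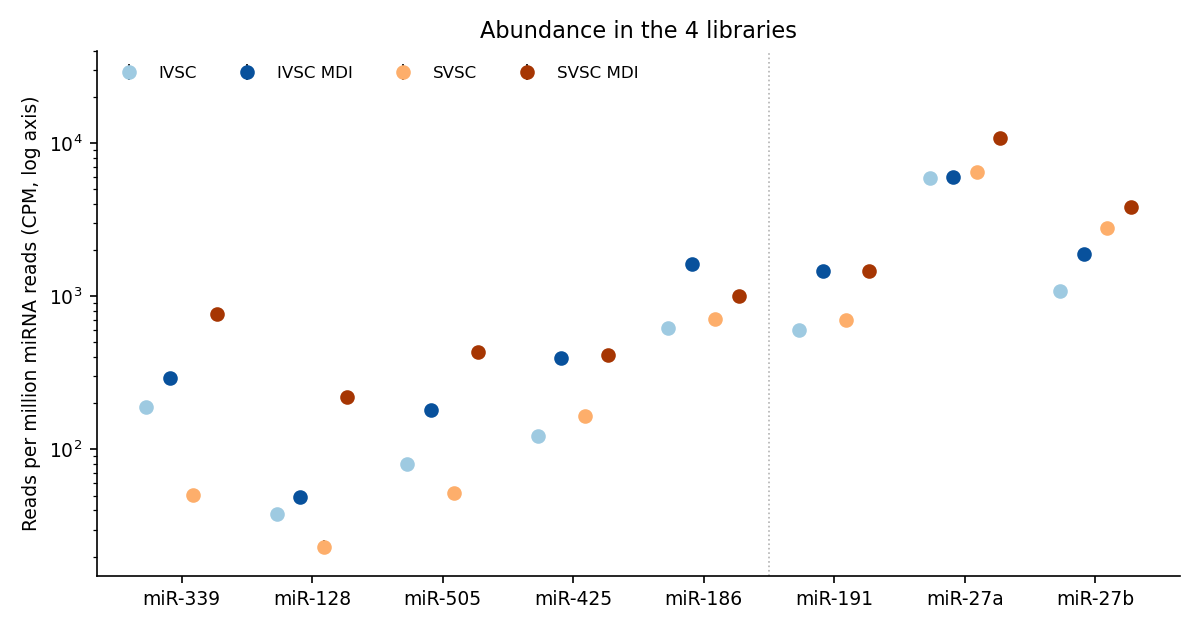
Level in CPM over miRNA reads (log axis) of the 5 miRNAs and, right of the dotted line, of miR-191, miR-27a and miR-27b, 1 point for each of the 4 libraries with an exact 95% Poisson interval, mostly smaller than the point. For miR-339, miR-128 and miR-505 SVSC is the lowest and SVSC MDI the highest library, while miR-425 and miR-191 are nearly level in the MDI libraries.

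The responses of the cultures therefore differed in size between the miRNAs. The log2 ratio with MDI was larger in SVSC than in IVSC by 3.28 for miR-339, 2.87 for miR-128 and 1.87 for miR-505, and the intervals of the ratios did not overlap. These were places 7, 9 and 21 from the top of 155 miRNAs ordered by this difference. For miR-425 the difference was -0.36 and for miR-186 -0.90, the response being larger in IVSC. Every log2 ratio in SVSC moved by -0.50 with TMM, -0.43 with DESeq2 size factors, -0.49 with all listed reads and -0.40 without miR-21. In IVSC the same scalings moved it by -0.04, -0.02, 0.22 and 0.08. With TMM the difference between the cultures was 2.82 for miR-339, 2.40 for miR-128, 1.41 for miR-505, -0.83 for miR-425 and -1.37 for miR-186, so no sign changed. Nor did a sign change with all listed reads, where the 5 differences were 2.58, 2.16, 1.17, -1.06 and -1.61 in the same order. With 1 library in each group these differences have no test.

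**Figure D2:**
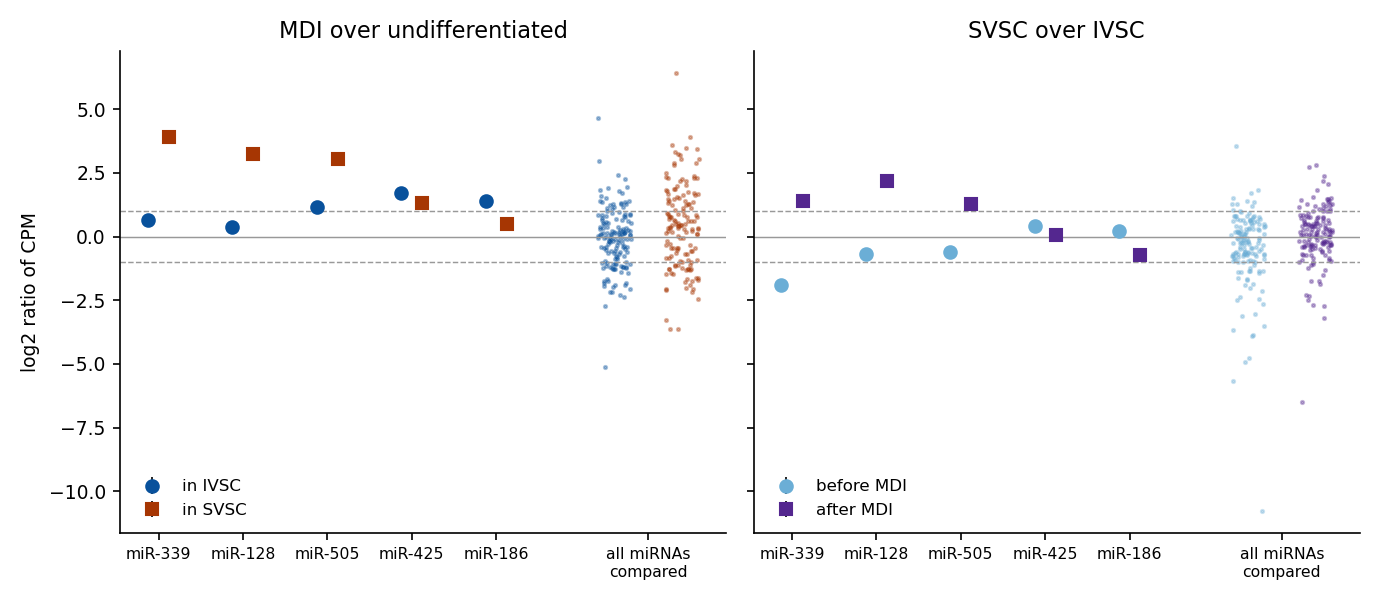
Log2 ratios of CPM for the 5 miRNAs and, at the right of each panel, for every miRNA compared (1 dot each), with MDI in each culture (left) and between SVSC and IVSC in each state (right). Dashed lines mark 2-fold, and the exact 95% intervals are mostly smaller than the points. miR-339, miR-128 and miR-505 are below 0 before MDI and above 0 after it in the right panel.

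**Figure D3:**
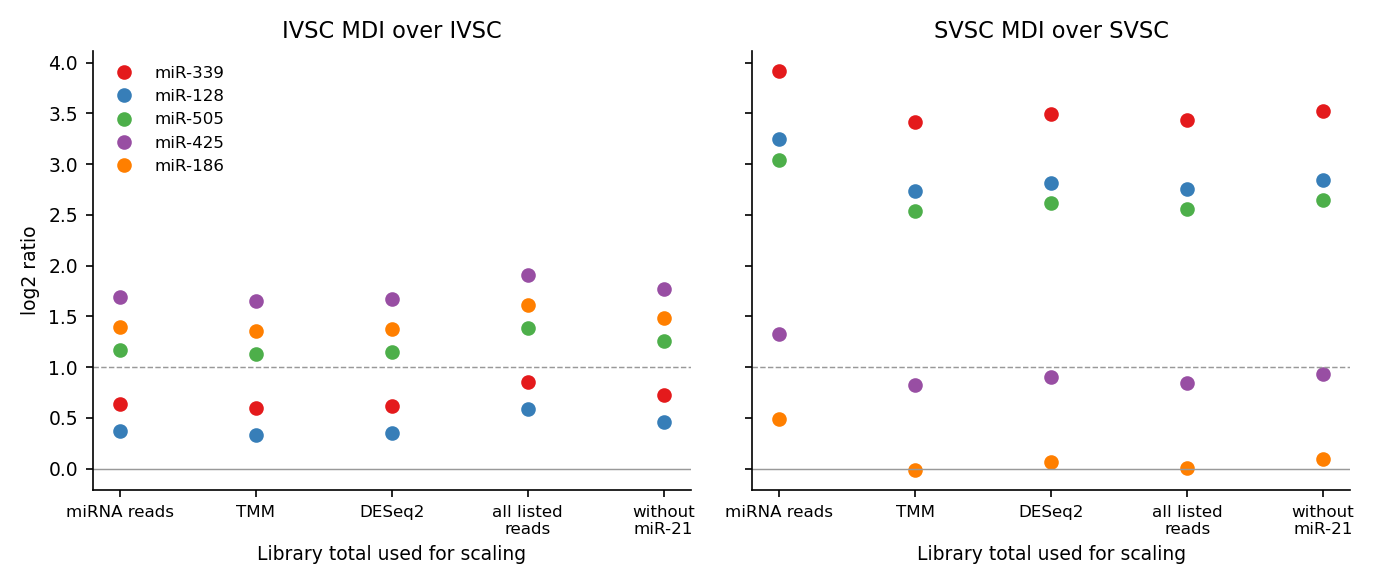
Log2 ratio of the 5 miRNAs with MDI under 5 library totals, in IVSC (left) and SVSC (right), with dashed lines at 2-fold. In SVSC the 4 other totals lower every point by 0.40 to 0.50, which takes miR-425 below 2-fold and miR-186 to about 0.

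The next question was where on the hairpin the reads and the rise lay. Nearly all reads of the 5 were on the mature miRNA. In the copy with the most reads the mature share ran from 93.9% (miR-505 in SVSC MDI) to 98.2% (miR-339 in IVSC) over the 20 values of 5 miRNAs in 4 libraries. Among all miRNAs at 10 CPM or more, 48.6% to 52.8% in a library had over 90% of their reads on the mature miRNA. No read of the 5 was placed on the star strand. None was for miR-27a either, at 115158 reads in SVSC, while miR-27b had 957 there. The sources used here do not say whether a star strand is annotated for the 5. If it is, the 0 allows a star share of up to 0.0124% for miR-186 in IVSC MDI, the deepest case, and up to 0.721% for miR-128 in SVSC, the shallowest. If not, the 0 sets no limit, and reads of the opposite arm could be among those elsewhere on the hairpin. The remaining 1.75% to 6.13% lay elsewhere on the hairpin.

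The rise was accordingly one of mature reads. In SVSC, mature reads made up 96.8% of the added CPM of miR-339, 96.4% of that of miR-128, 93.7% of that of miR-505 and 96.8% of that of miR-425. In IVSC they made up 95.9% of the added CPM of miR-505, 98.1% of that of miR-425 and 97.8% of that of miR-186. For the ratios short of 2-fold the mature part was 97.2% (miR-339) and 88.5% (miR-128) in IVSC, and 95.2% (miR-186) in SVSC. On mature reads alone, over the same library totals, miR-339 had a ratio of 15.01 in SVSC (13.9 to 16.3), near its 15.1 on all hairpin reads.

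Reads on the rest of the hairpin were few and had higher CPM with MDI too. For miR-339 they went from 21 to 61 reads in SVSC, a ratio of 20.2 (12.2 to 35.01), whose interval holds the 15.01 of the mature reads. For miR-505 they went from 46 to 68 reads there, a ratio of 10.3 (6.99 to 15.3), again with the mature ratio of 8.14 inside. In IVSC those of miR-425 had a ratio of 1.71 (1.33 to 2.22), below the 3.32 (3.14 to 3.51) of its mature reads. miR-186 showed the same order there, with 1.98 (1.72 to 2.27) on the rest of the hairpin and 2.66 (2.59 to 2.73) on the mature miRNA.

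**Figure D4:**
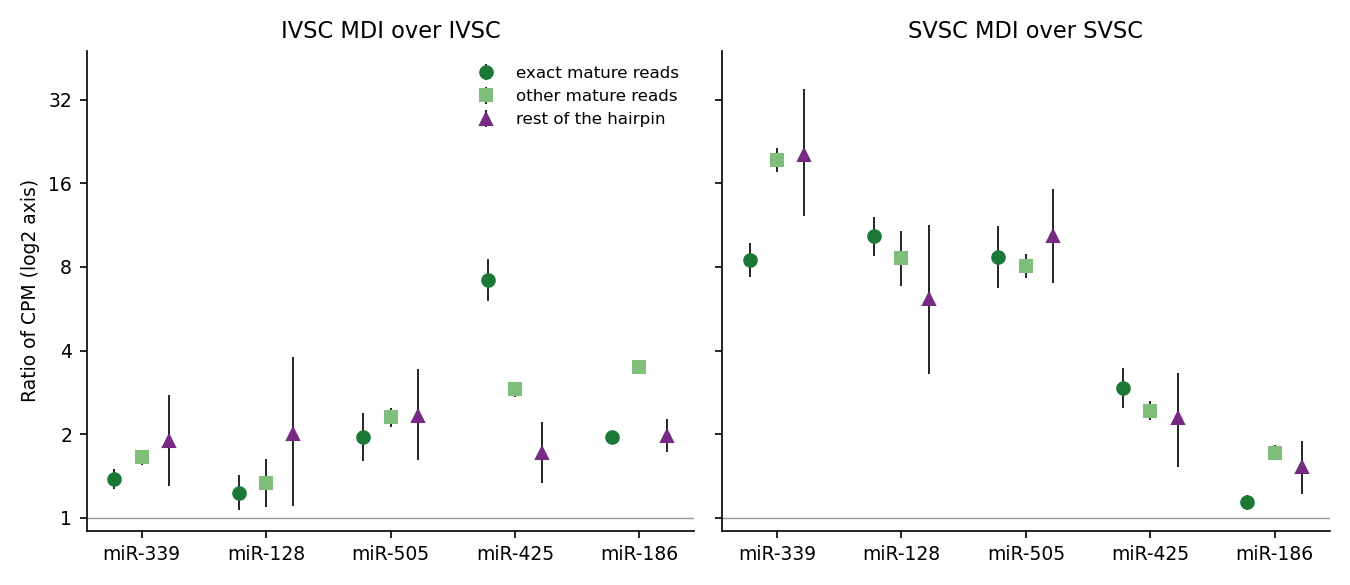
Ratio of CPM with MDI (log2 axis) for reads that match the mature miRNA exactly, for its other mature reads and for the rest of the hairpin, with exact 95% intervals, in IVSC (left) and SVSC (right). All 3 kinds of reads lie above 1 for each of the 5 miRNAs. Exact reads of miR-425 in IVSC lie above its other mature reads, and those of miR-339 in SVSC and of miR-186 in IVSC lie below theirs.

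The files also count which mature reads match the annotated miRNA exactly; the others are mature reads that differ from it, with limits the headers do not define. This exact share was not used to choose the 5, and it needs no scaling. Intervals after it are exact binomial 95% intervals of counting error. For miR-339 the exact share was 38.0% (36.1 to 39.97) before and 33.8% (32.3 to 35.2) after MDI in IVSC, and 40.0% (36.8 to 43.3) before and 22.6% (20.7 to 24.5) after MDI in SVSC. It was lower with MDI in both cultures, and its fall of 17.4 points in SVSC was the 13th lowest change of 92 miRNAs with at least 100 mature reads. Its exact reads rose 8.47-fold in SVSC (7.34 to 9.77) and its other mature reads 19.4-fold (17.5 to 21.4).

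For miR-186 the exact share was 54.5% (53.4 to 55.6) before and 40.0% (39.4 to 40.7) after MDI in IVSC, and 54.5% (53.6 to 55.3) before and 44.2% (42.2 to 46.1) after MDI in SVSC. The undifferentiated libraries were level and both MDI libraries were lower, with intervals that do not overlap theirs. In IVSC its exact reads had a ratio of 1.95 (1.88 to 2.02), short of 2-fold, and its other mature reads rose 3.50-fold (3.38 to 3.64).

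miR-425 went the other way. Its exact share was 9.73% (8.29 to 11.3) before and 20.99% (19.9 to 22.1) after MDI in IVSC, and 17.8% (16.4 to 19.2) before and 20.7% (18.3 to 23.3) after MDI in SVSC. IVSC was lower than the other 3 libraries, and the intervals of SVSC and SVSC MDI overlap. In IVSC the exact reads rose 7.16-fold (6.03 to 8.55), from 149 to 1192 reads, and the other mature reads 2.90-fold (2.73 to 3.09).

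The exact share of miR-505 was 14.7% (12.6 to 17.05), 12.8% (11.5 to 14.1), 12.3% (10.3 to 14.7) and 13.2% (11.2 to 15.4) before and after MDI in IVSC and before and after it in SVSC, with overlapping intervals. Over all miRNAs with at least 100 mature reads, 57.1% of 119 had a lower exact share with MDI in IVSC and 59.8% of 92 in SVSC, with median changes of -0.82 and -0.97 points.

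**Figure D5:**
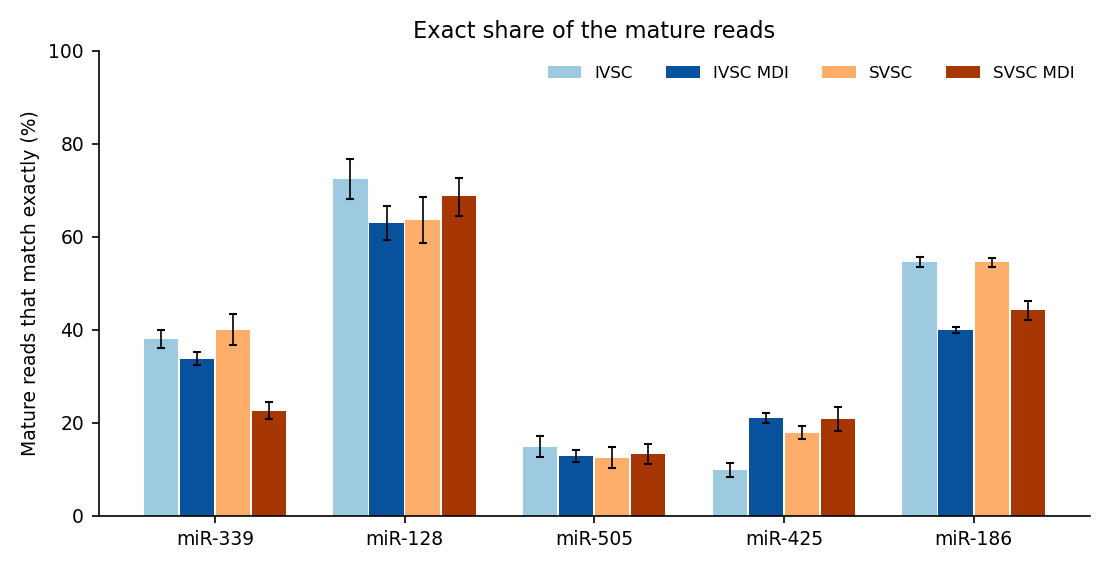
Share of the mature reads that match the annotated miRNA exactly (%) for the 5 miRNAs in each library, with exact binomial 95% intervals, for miR-128 in the copy with the most reads. The shares of miR-339 and miR-186 are lower in the MDI libraries of both cultures, and that of miR-425 is lowest in IVSC.

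The 2 hairpins of miR-128 give the same mature miRNA, and no exact mature read was unique to either. In the copy miR-128-1, which had the most reads, the exact share was 72.5% (68.01 to 76.7) before and 63.0% (59.2 to 66.6) after MDI in IVSC, and 63.7% (58.7 to 68.5) before and 68.7% (64.5 to 72.6) after MDI in SVSC. Summed over the copies it was 76.6%, 74.0%, 74.7% and 78.5%, and the intervals of IVSC and IVSC MDI, apart in the larger copy, then overlap. Mature reads placed on 1 copy alone differ from the annotated miRNA and so can tell the copies apart. Those of miR-128-1 numbered 96 before and 208 after MDI in IVSC, and 115 before and 142 after MDI in SVSC. They rose 8.61-fold in SVSC (6.68 to 11.1), an interval that holds the 9.47 of miR-128 as a whole. In IVSC their ratio was 1.94 (1.52 to 2.50), above the 1.30 of miR-128 as a whole. Those of miR-128-2 numbered 53 before and 4 after MDI in IVSC, and 0 (which allows up to 0.167 CPM) before and 7 after MDI in SVSC. They were 14.8-fold lower with MDI in IVSC (5.45 to 56.3). In SVSC they were 16.3-fold higher with MDI when the 0 was set to 3 reads, while the exact interval from 7 and 0 reads reaches down to 10.05. At 4.00 CPM or less in every library, these reads lay under the 10 CPM at which a miRNA was compared, so neither change is called. In every library the reads unique to miR-128-1 outnumbered those unique to miR-128-2.

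Between cultures, the order of 3 miRNAs turned over with MDI. The difference between the ratios before and after MDI equals the difference between the MDI responses that chose the 5, and the libraries are the same, so these ratios are a description too. Before MDI, miR-339 was 3.75-fold lower in SVSC than in IVSC (3.48 to 4.05), the only 1 of the 5 past 2-fold, where 20.9% of 148 miRNAs were lower and 7.43% higher. miR-128 was 1.62-fold lower (1.42 to 1.85) and miR-505 1.53-fold lower (1.40 to 1.67), both short of 2-fold, and miR-425 (1.34; 1.26 to 1.43) and miR-186 (1.15; 1.12 to 1.18) had ratios above 1. After MDI 3 of the 5 were higher in SVSC, where 17.7% of 147 miRNAs were higher and 10.2% lower. miR-128 was 4.50-fold higher (4.02 to 5.03), the 4th highest of the 147, miR-339 2.59-fold (2.46 to 2.74) and miR-505 2.39-fold (2.23 to 2.57). miR-425 did not differ beyond counting error over miRNA reads, with a ratio of 1.05 (0.980 to 1.12), and miR-186 was 1.63-fold lower (1.57 to 1.70). Under the alternatives of scaling and counting the log2 ratio of miR-425 ran from -0.45 (all listed reads) to 0.09. These directions of miR-339, miR-128 and miR-505, before and after MDI, were the same under all 8 alternatives of scaling and counting. After MDI miR-339 and miR-505 were short of 2-fold with all listed reads (log2 ratios of 0.86 and 0.74). They were also short of it on exact mature reads over exact totals, the library's exact mature reads (0.47 and 0.96). Exact reads of miR-505 over miRNA reads had a ratio of 2.41 (1.96 to 2.95).

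Over all 4 libraries, the effect of origin with MDI state in the model was tested with edgeR's quasi-likelihood test, Benjamini-Hochberg adjusted over 179 miRNAs. None of the 5 was called, where 2.79% of the 179 were, and none had an unadjusted p under 0.05 with edgeR or with DESeq2. The log2 ratios of SVSC over IVSC were -0.10 ± 0.67 (SE) for miR-339 (adjusted p = 0.996), 0.90 ± 0.78 for miR-128 (adjusted p = 0.914) and 0.48 ± 0.66 for miR-505 (adjusted p = 0.996). Those of miR-425 and miR-186 were 0.41 ± 0.61 and -0.09 ± 0.57 (both adjusted p = 0.996 with edgeR). This model gives 1 origin effect for both states, so the opposite ratios of miR-339 before and after MDI average out in it. It leaves 1 residual degree of freedom, the spread is shared over all miRNAs, and its p-values measure only the spread between these 4 libraries.

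miR-191, which lies in DALRD3 beside miR-425 and is known as its partner on one transcript, was read beside it. It stood at 598 CPM before and 1461 after MDI in IVSC, and at 700.4 and 1457 in SVSC. Over miRNA reads the MDI libraries were level, with a ratio of SVSC MDI to IVSC MDI of 0.997 (0.963 to 1.03). The log2 ratio was -0.52 with all listed reads and 0.05 on mature reads over mature totals. It rose 2.44-fold in IVSC (2.38 to 2.51) and 2.08-fold in SVSC (2.00 to 2.16). In SVSC it was short of 2-fold under the 4 other scalings (log2 ratios of 0.55 to 0.66) and on exact mature reads over exact totals (0.43). Over miRNA reads its exact reads had a ratio of 1.77 there (1.69 to 1.86). The ratio of miR-425 reads to miR-191 reads within a library, which no scaling touches, was 0.205 (0.194 to 0.217) before and 0.271 (0.263 to 0.279) after MDI in IVSC, and 0.235 (0.226 to 0.245) before and 0.284 (0.265 to 0.305) after MDI in SVSC. It was higher with MDI in both cultures, so the pair did not change by the same factor.

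miR-27a and miR-27b, whose seed overlaps that of miR-128, were far more abundant than it. miR-27a stood at 5926 CPM before and 6027 after MDI in IVSC, and at 6420.1 and 10829 in SVSC, and miR-27b at 1074, 1894, 2773 and 3830 CPM. Neither was past 2-fold with MDI over miRNA reads: the ratios were 1.02 and 1.76 in IVSC and 1.69 and 1.38 in SVSC. With all listed reads miR-27b was past it in IVSC (log2 ratio 1.04), and on mature reads over mature totals miR-27a was past it in SVSC (1.08). The log2 ratio of miR-27b in SVSC was -0.04 with TMM, -0.02 with all listed reads and -0.11 on exact mature reads over exact totals. Its direction there thus depends on the scaling, and its exact reads over miRNA reads had a ratio of 1.22 (1.19 to 1.25). That of miR-27a in IVSC was -0.02 with TMM.

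Within a library the order of the 5 by reads changed as well. Mature miRNAs have nearly the same length, so reads were compared without a length correction, although ligation can favour some sequences over others. miR-186 came first and miR-128 last in all 4. Between them stood miR-339, miR-425 and miR-505 in IVSC, miR-425, miR-339 and miR-505 in IVSC MDI, miR-425, miR-505 and miR-339 in SVSC, and miR-339, miR-505 and miR-425 in SVSC MDI. The neighbours miR-505 and miR-339 in SVSC (read ratio 1.03; 0.943 to 1.13) and miR-505 and miR-425 in SVSC MDI (1.04; 0.956 to 1.13) did not differ beyond counting error. miR-339 had 0.0710 reads for each read of miR-186 in SVSC and 0.763 in SVSC MDI, against 0.305 in IVSC and 0.180 in IVSC MDI. That ratio was higher with MDI in SVSC and lower in IVSC, and it depends on no library total.

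Across libraries the order of each miRNA was read in the same way. For miR-339, miR-128 and miR-505 it ran from SVSC through IVSC and IVSC MDI to SVSC MDI, with intervals of neighbouring ratios that exclude 1. For miR-425 it ran from IVSC through SVSC to the MDI libraries, which did not differ beyond counting error over miRNA reads. For miR-186 it ran, over miRNA reads, from IVSC through SVSC and SVSC MDI to IVSC MDI. SVSC and SVSC MDI changed places with TMM (log2 ratio -0.01) and on exact mature reads over exact totals (-0.21). Over miRNA reads the exact reads of miR-186 did not, with a ratio with MDI of 1.14 (1.07 to 1.21) in SVSC. IVSC and SVSC changed places on mature reads over mature totals (-0.02).

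The miRNAs with profiles most like these were found among 155 miRNAs at 10 CPM or more in a library, as the Euclidean distance between log2(CPM + 1) profiles over the 4 libraries, centred on their mean. miR-10b, of a HOX gene cluster, was among the nearest 3 of miR-339 (distance 0.448), miR-128 (0.910) and miR-505 (0.542). It stood at 3980 CPM before and 7023 after MDI in IVSC, and at 1546 and 15493 in SVSC, the same order of libraries as these 3. The others near miR-339 were miR-133a (0.643), one of the skeletal muscle markers above, and miR-149 (0.916). Near miR-128 they were miR-505 (0.706) and miR-4334 (0.893), and near miR-505 miR-328 (0.379) and miR-30c (0.426). The nearest of miR-425 were miR-23b (0.273), miR-191 (0.362) and miR-181a (0.508), and those of miR-186 were miR-1285 (0.401), miR-191 (0.547) and miR-146a (0.716). miR-191 was thus near miR-425 and miR-186 alike. The likeness is one of all hairpin reads, and 4 of these neighbours had few or no mature reads. The mature share was at most 4.64% for miR-133a and 4.82% for miR-1285 in any library, and no read of miR-4334 or miR-146a was placed on the mature miRNA. That of miR-10b was at least 98.9%. With 4 libraries that share these totals, the distances are a description.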

How the data were processed

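Small RNA was sequenced from 4 libraries (16 to 35 nt fragments of about 10 µg of total RNA, 12 PCR cycles, 36 read cycles), 1 for each group. The deposited values are read counts, per the file headers: for each feature of Sus scrofa hairpins, Ensembl non-coding RNAs (Sscrofa9.61), piRNAs and Rfam, the exact mature, mature, star, other and total reads. The sources used here give no aligner or mismatch setting, and mm9, a mouse build, appears in the submitters' processing notes with no stated role. The deposited unique mature reads of SVSC hold 1 damaged Rfam entry, so of that column the hairpin entries, all whole counts, were used. Entries with no resource name (3 in SVSC, 1 in SVSC MDI, at most 1.17e-05% of listed reads) were left out of the totals.

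The reads of a miRNA with hairpin copies were those of the largest copy plus the reads unique to the others, and were scaled to CPM over a library's miRNA reads. A miRNA was compared if either library had it at 10 CPM or more, and a count of 0 was set to 3 reads. Alternatives were TMM, DESeq2 size factors, all listed reads, miRNA reads without miR-21, the sum of the copies, and mature or exact reads. Mature reads were taken over miRNA reads and over the library's mature reads, and exact reads over the library's exact mature reads. The origin effect was fitted with edgeR 4.0.16 (filterByExpr, TMM, R 4.3.3, limma 3.58.1), and with DESeq2 1.42.0 as an alternative. SEs were derived from the fitted log2 ratio and its F statistic (ratio size over root F). Python 3.11.15 was used with NumPy 2.4.6, pandas 2.3.3, SciPy 1.17.1 (intervals) and matplotlib 3.10.9 (figures). Interval and fit were tested on simulated data. Named miRNAs were the 5 members, miR-191, miR-27a and miR-27b, and the 3 nearest profiles of each member. The members, marker lists and tests were chosen with earlier results of these data known.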

Additional observations from a re-analysis of the deposited data

Results flagged for a closer look

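The order of the cultures differed before and after MDI for 4 of the 5 miRNAs, with intervals of counting error that exclude 1 on either side. The ratio of SVSC to IVSC went from 0.267 before to 2.59 after MDI for miR-339, from 0.616 to 4.50 for miR-128 and from 0.653 to 2.39 for miR-505. For miR-186 it went the other way, from 1.15 to 0.613, and on mature reads over the total of mature reads its log2 ratio before MDI was -0.02. These differences are those of the MDI responses that chose the 5. With 1 library in each group they were not tested, and the shallow SVSC MDI library enters all 4.

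Mature reads unique to the hairpin miR-128-2 moved opposite ways with MDI, by a ratio of 0.0675 in IVSC (53 and 4 reads) and of 16.3 in SVSC with the 0 set to 3 reads (0 and 7 reads, lower 95% limit 10.05). The difference was not tested and rests on few reads, under the 10 CPM at which a miRNA was compared.

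Rfam entries, which the comparisons leave out, also hold reads of the miR-339 family. The largest of them had 25 reads before and 60 after MDI in IVSC, and 28 and 18 in SVSC, a ratio with MDI of 2.15 in IVSC (1.33 to 3.57) and 4.48 in SVSC (2.33 to 8.39). The largest miR-186 entry had 30, 35, 60 and 12 reads and ratios of 1.04 (0.623 to 1.76) and 1.39 (0.683 to 2.62).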

How the results depend on the processing

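The number of the 5 past 2-fold was within 1.5 times of the first count under all alternatives, apart from exact reads over exact totals. These gave 2 in place of 1 between the undifferentiated cultures (miR-425 was added, log2 ratio 1.51). Between the MDI cultures they gave 1 in place of 3 (miR-339 and miR-505 were lost). Exact reads over miRNA reads gave miR-505 a ratio of 2.41 there (1.96 to 2.95), past 2-fold, and miR-339 1.72 (1.54 to 1.91). Beyond the choice of total, the cause was not tested. With all listed reads the 2 past 2-fold between the MDI cultures were miR-128 (higher) and miR-186 (lower, log2 ratio -1.23). Scaling set the balance over all miRNAs: rises and falls numbered 25 and 36 in IVSC (32 and 21 with all listed reads) and 50 and 32 in SVSC (36 and 45 with TMM, 38 and 42 with DESeq2 size factors, 33 and 44 with all listed reads, 40 and 42 without miR-21). SVSC over IVSC had 11 higher and 31 lower (24 and 28, 28 and 24, 14 and 28, 24 and 30 in that order of scalings). After MDI it had 26 and 15 (21 and 20, 23 and 17, 7 and 29, 19 and 25). On exact mature reads over exact totals the log2 ratio of miR-186 in SVSC was -0.21. No member was called for origin in any of the 6 alternative fits, of which that without MDI state called 0 of 179 miRNAs (10 at an unadjusted p under 0.05). No paired analysis was possible because the labels give no replicate numbers and each group had 1 library, so none was left out either. The origin fit had MDI state as a term. Depth limits the reads unique to miR-128-2 (53 and 4 in IVSC, 0 and 7 in SVSC).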
